A study of Mus musculus with 8 samples.

Results

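The genes described here are 10 members of the families that switch off mitogen-activated protein (MAP) kinase signaling: the dual-specificity phosphatases *Dusp1*, *Dusp2*, *Dusp4*, *Dusp5*, *Dusp6*, *Dusp9* and *Dusp10*, the Sproutys *Spry1* and *Spry2*, and the related *Spred1*. They were taken by symbol from a deposited table of 24303 genes, and all 10 were found in it. The table came from RNA-Seq of sorted CD8 T cells of P14 mice, whose transgenic T cell receptor recognizes the GP33 peptide of LCMV, on a C57BL/6 background. Spleen cells of male or female mice were activated on plate-bound anti-CD3 and anti-CD28 for 2 days, pooled, and kept in culture with cytokines in all 4 conditions. The Effector condition is the day 7 time point, and the sample labels do not spell out which peptide these cells had received by then. In its flow cytometry, the study labels day 7 Effector cells as stimulated for 7 days. Acute-2d cells received no peptide after day 2, Acute-7d cells received GP33 until day 7, and both then rested until day 19. T_Dysf cells received GP33 repeatedly until day 19 together with TGF-β1 from day 7, so antigen and TGF-β1 changed together in this condition. It is a culture model of dysfunction made from a single receptor specificity. Day of collection and condition cannot be told apart in the comparisons with Effector. Each condition had 2 libraries, which the series describes as biological replicates. Where both came from the same pool of activated cells, their spread may be smaller than that between animals.

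T cell receptor engagement activates Ras and the kinase ERK, and in parallel the stress-activated kinases JNK and p38. Dual-specificity phosphatases remove the activating phosphates from these kinases, some in the nucleus and some in the cytoplasm, and many of their genes are themselves induced by the kinases they inactivate. Sprouty and Spred proteins act upstream, between receptor and Ras, and are likewise known as feedback inhibitors of ERK signaling.

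The values were normalized counts, that is, reads per gene scaled by the authors with a size factor of each library. Depth ran from 19382117 to 24855867 reads on genes, and the lowest value of any of the 10 genes was worth 37.0 reads. Replicates differed by more than the sampling noise of their reads in every condition. Of the CD8 T cell markers, 8 of 8 were above 50 normalized counts in at least 1 library. Their summed level was 195850.0 to 197836 in T_Dysf and 85947 to 103171 in the other conditions. *Cd2* went against this sum, at 3439 and 3478 in T_Dysf and 8378 and 8820.5 in Acute-7d. The 3 plasma cell markers summed to between 350.3 and 423 in T_Dysf and to between 7.09 and 26.1 elsewhere, with *Mzb1* at or under 50 in all libraries; their part in the T_Dysf differences was not tested. The NK cell markers (4 of 4 in the table) summed to between 1048 and 1523 in Acute-7d and to between 273 and 641 elsewhere, and the lists for B cells, myeloid cells, dendritic cells, erythroid cells, neutrophils and fibroblasts summed to between 0 and 743. The CD4 T cell markers summed to between 1058 and 1639, with *Cd4*, *Foxp3* and *Cd40lg* at or under 50 in all libraries. In the labels 3 library names start with RESUB (Acute-7d replicate 1 and the Effector pair), and nothing says what it stands for. *Xist*, the RNA of the inactive X chromosome, was at 53.5 to 115 in these 3 libraries and at 21871 to 30427 in the other 5, whereas 4 Y-linked genes summed to 4642 to 5581 in the 3 and to 0 to 13.8 in the 5. Condition, prefix and these sex-linked levels therefore cannot be told apart where Effector is compared with Acute-2d or T_Dysf. For the 10 genes the comparisons of T_Dysf and of Effector with Acute-7d are also given within libraries that share the prefix or its absence. The Acute-7d libraries differ from each other in these sex-linked levels, so they did not come from the same pool of cells. A term for the prefix, used below, rests only on the difference between the Acute-7d libraries. In these comparisons with Acute-7d it gives the same difference as within such libraries, so these are not separate checks. It leaves T_Dysf minus Acute-2d unchanged.

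Of the 10 genes, 8 had an entry in the table of RefSeq promoters (GRCm38.p6) used here, and *Dusp1* and *Dusp5* are shown because their windows held a motif searched for. *Dusp1* (Entrez 19252) lies at chr17:26505591-26508472 on the minus strand, and *Dusp5* (Entrez 240672) at chr19:53529145-53541809 on the plus strand. *Dusp6* (Entrez 67603, chr10:99263231-99267489, plus strand) is shown beside them as a window without a match, from a gene that like *Dusp1* was lower in Effector than in both rested conditions by the test below. Each sequence gives the 250 bases before the start site, 5′ to 3′ on the gene's strand, with capitals for a match to the cAMP response element (CRE, TGACGTCA) or to the CArG box, the site of serum response factor.
Dusp1, chr17:26508473-26508722: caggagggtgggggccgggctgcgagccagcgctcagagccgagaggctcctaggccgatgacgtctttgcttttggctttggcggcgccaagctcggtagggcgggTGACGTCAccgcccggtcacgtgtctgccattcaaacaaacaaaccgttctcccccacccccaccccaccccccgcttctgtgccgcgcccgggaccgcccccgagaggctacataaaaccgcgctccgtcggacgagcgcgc
Dusp5, chr19:53528895-53529144: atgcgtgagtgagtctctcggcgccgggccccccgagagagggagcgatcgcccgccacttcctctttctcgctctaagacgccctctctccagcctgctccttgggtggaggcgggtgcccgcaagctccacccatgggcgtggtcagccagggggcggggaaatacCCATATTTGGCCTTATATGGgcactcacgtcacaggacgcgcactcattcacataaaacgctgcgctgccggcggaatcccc
Dusp6, chr10:99262981-99263230: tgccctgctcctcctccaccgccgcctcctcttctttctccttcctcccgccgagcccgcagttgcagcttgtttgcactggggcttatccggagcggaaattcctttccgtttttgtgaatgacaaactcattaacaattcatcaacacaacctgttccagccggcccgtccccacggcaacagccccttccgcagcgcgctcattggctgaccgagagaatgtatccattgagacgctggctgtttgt

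The CRE of *Dusp1* lay at bases -143 to -136, counted back from -1 just before the start site. *Dusp5* held 2 adjoining CArG boxes, at -82 to -73 and at -72 to -63. A CRE on either strand was present in 1.55% of all 32851 RefSeq promoters cut to the same window, and a CArG box in 1.47%. The 8 windows were also searched on both strands for an AP-1 site (TGANTCA), an EGR site (GCGTGGGCG), an ETS site (CCGGAAG) and a SMAD palindrome (GTCTAGAC), which 6.75%, 0.536%, 6.91% and 0.167% of all promoters held. None of these 4 motifs was found in the 8 windows, *Dusp6* included, and no motif searched for was found in those of *Dusp2*, *Dusp10*, *Spry1*, *Spry2* or *Spred1*. A match is a description of the sequence and was not tied to any level below.

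**Figure D1:**
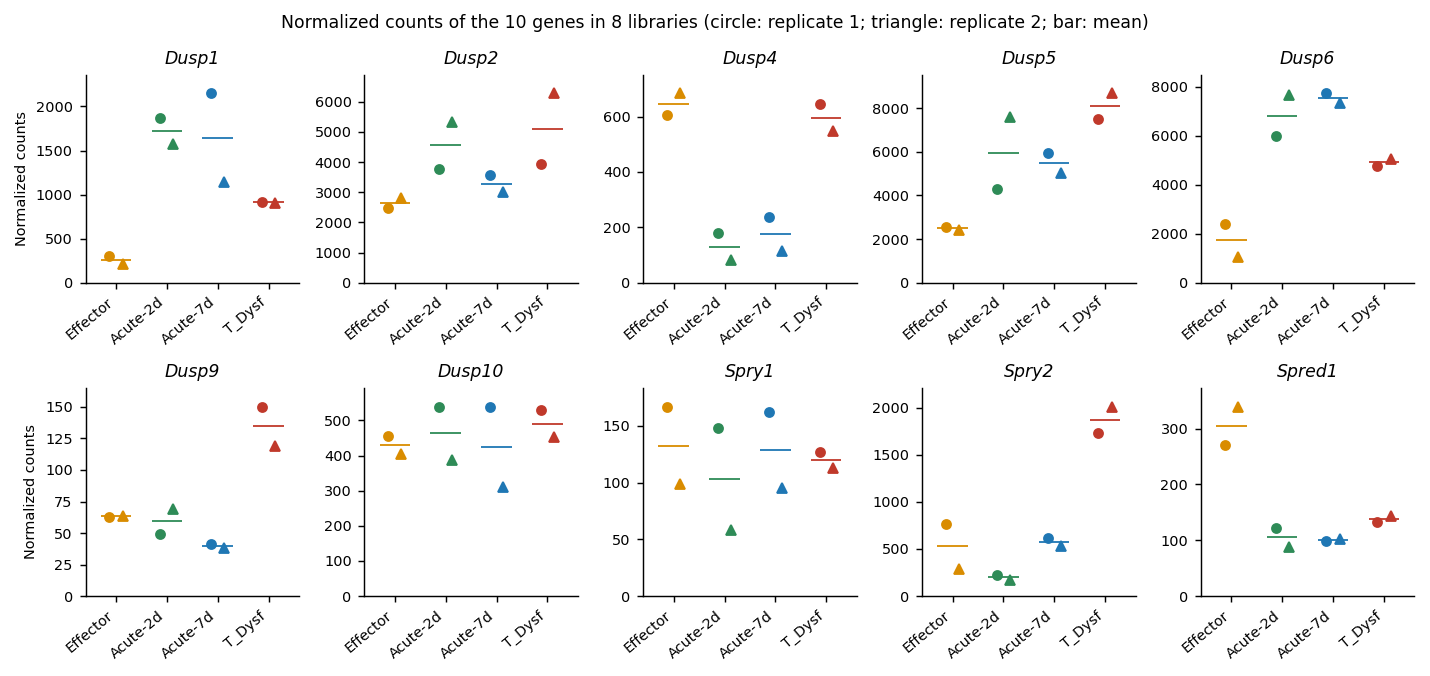
Normalized counts (y axes, linear, from 0) of the 10 genes in the 8 libraries, by condition (x axes). Circles are replicate 1, triangles replicate 2 and bars the mean of the 2 libraries. *Dusp1* and *Dusp6* are lowest in Effector, *Dusp9* and *Spry2* are highest in T_Dysf, and *Spred1* is highest in Effector.

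Levels were first compared between genes, as normalized counts per kb of exon. *Dusp2*, *Dusp5* and *Dusp6* were the 3 highest genes in every condition and made up 85.3% to 92.6% of the summed level of the 7 phosphatase genes in every library. *Dusp5* led in T_Dysf at 3270.4 ± 336 per kb (mean ± SD, n = 2), followed by *Dusp2* at 2544 ± 831, whose libraries overlapped those of *Dusp5*, and *Dusp6* at 1568 ± 69.0. *Dusp6* led in Acute-7d at 2401 ± 92.2 with *Dusp5* at 2219.8 ± 263, and these libraries also overlapped. In Acute-2d the same 3 genes lay at 2177 to 2400.3 per kb, within the spread of their replicates. *Dusp2* led in Effector at 1317 ± 122, above both libraries of *Dusp5* at 1006 ± 36.4 and of *Dusp6* at 552 ± 305.

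At the other end, *Dusp9*, *Spred1* and *Spry1* were the 3 lowest genes in every condition, at 14.6 to 49.5 normalized counts per kb. *Spry2* held the 4th place in Effector (252 ± 160 per kb) and T_Dysf (895 ± 95.6) and the 6th in Acute-2d (94.6 ± 15.3). *Dusp1* was 4th in both Acute conditions, 5th in T_Dysf and 7th in Effector. The summed level of the 7 phosphatase genes was 3188 to 3515 per kb in the Effector libraries and 6353 to 8923 in the other 6. *Dusp6* alone supplied 10.6% and 21.8% of that sum in Effector, 27.6% to 36.7% in the Acute libraries and 18.1% and 21.0% in T_Dysf. *Dusp5* supplied 39.3% and 41.8% in T_Dysf and 27.3% to 34.8% elsewhere.

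**Figure D2:**
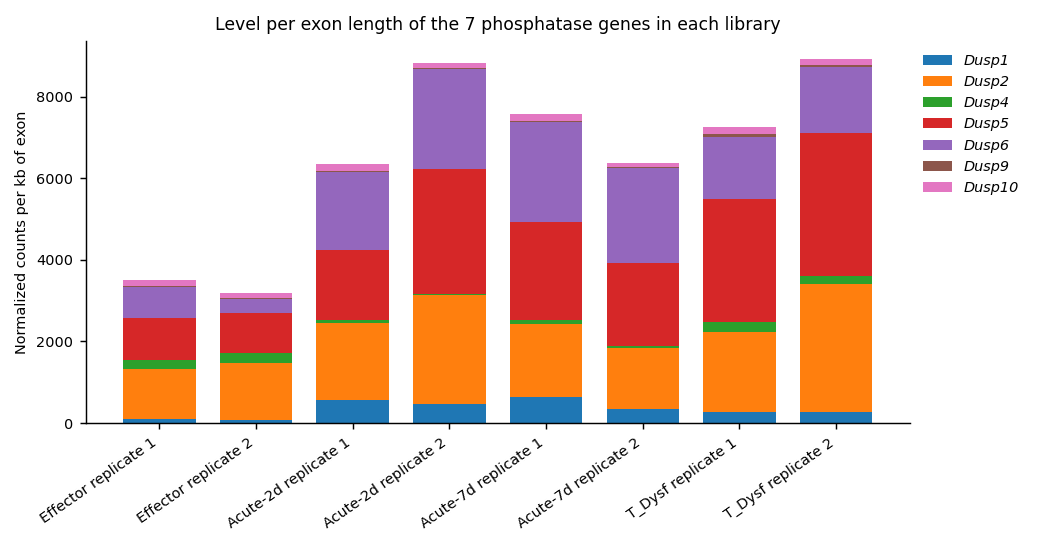
Stacked bars of the level of the 7 phosphatase genes, in normalized counts per kb of exon (y axis), for each of the 8 libraries (x axis). Both Effector bars are the lowest (3188 and 3515), and *Dusp2*, *Dusp5* and *Dusp6* fill most of every bar.

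Differences between conditions were tested with limma on log2(normalized count + 1) across all 24303 genes, with 4 residual degrees of freedom. A gene that differed by 2-fold or more, with a p under 0.05 after Benjamini-Hochberg adjustment over all genes, is called a DEG. The 6 comparisons share libraries: T_Dysf, Effector, Acute-7d and Acute-2d each enter 3 of them. With 2 libraries a condition, exact permutation of the libraries of any comparison cannot give a p under 0.05. In the 6 comparisons, 15.8% to 26.8% of all genes were higher without overlap of libraries, and 16.3% to 29.7% were lower. In bulk RNA, fewer cells that express a gene and less RNA per cell cannot be told apart.

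Among the phosphatases of the nucleus, *Dusp1* acts on p38, JNK and ERK and is a classic immediate early gene. Its values were 302 and 209 normalized counts in Effector, 1875 and 1569 in Acute-2d, 2148 and 1146 in Acute-7d, and 914 and 907 in T_Dysf. The Effector libraries were below all others, and the T_Dysf libraries lay between them and the rested cells with no overlap. Of all genes, 9.95% were lower in every library of Effector and T_Dysf than in every rested library. *Dusp1* was a DEG in all 3 comparisons with Effector: by limma it was 6.23-fold lower in Effector than in Acute-7d (log2 fold change -2.64, SE 0.35, adjusted p = 0.0185) and 6.81-fold lower than in Acute-2d (-2.77, SE 0.35, adjusted p = 0.0152), and 3.62-fold higher in T_Dysf than in Effector (log2 fold change 1.86, SE 0.35, adjusted p = 0.0303). Between T_Dysf and Acute-7d the difference was -0.78 (95% interval -1.68 to 0.11), so a fall of over 2-fold and no difference both lay inside the interval, and within the libraries without the prefix it was -0.33. T_Dysf minus Acute-2d was -0.91 (95% interval -1.81 to -0.014, limma unadjusted p = 0.0476, adjusted p = 0.175), which was not a DEG. Within the RESUB libraries, Effector minus Acute-7d was -3.09. With a term for the prefix, which rests on the Acute-7d pair alone, *Dusp1* was a DEG against Acute-7d and Acute-2d (limma adjusted p = 0.0278 and 0.0466). Against T_Dysf it was not (2.76, adjusted p = 0.0737). This term cannot separate condition from prefix against Acute-2d or T_Dysf. The call against Acute-7d did not hold without Effector replicate 2, Acute-7d replicate 1 or either T_Dysf library (adjusted p 0.0530 to 0.0642), that against Acute-2d without Effector replicate 2 or either Acute-2d library (0.0544 to 0.0757), and that against T_Dysf without Effector replicate 2 or any library of Acute-2d or T_Dysf (0.0640 to 0.134).

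*Dusp2* encodes a phosphatase of the nucleus first known from activated lymphocytes. Its values were 2465 and 2812 normalized counts in Effector, 3769 and 5334 in Acute-2d, 3570.2 and 3003 in Acute-7d, and 3918 and 6272 in T_Dysf. The Effector libraries were the lowest. Both Acute-7d libraries were next, below those of Acute-2d and T_Dysf, which overlapped each other. *Dusp2* was a DEG in none of the 6 comparisons, with log2 differences of -0.77 to 0.91. The largest, T_Dysf minus Effector, was 0.91 (95% interval 0.16 to 1.66, unadjusted p = 0.0262, limma adjusted p = 0.105). T_Dysf minus Acute-7d was 0.72 within the libraries without the prefix, and Effector minus Acute-7d was -0.44 within the RESUB libraries.

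*Dusp4*, a nuclear phosphatase of ERK and JNK, had another pattern. Its values were 607 and 683 normalized counts in Effector, 179 and 82.0 in Acute-2d, 237 and 114 in Acute-7d, and 644 and 547 in T_Dysf. All 4 libraries of Effector and T_Dysf were above all 4 of the rested cells, which held for 9.16% of all genes, and Effector and T_Dysf overlapped (difference -0.12, 95% interval -1.41 to 1.18). *Dusp4* was a DEG between Effector and Acute-2d by limma (log2 fold change 2.40, SE 0.50, adjusted p = 0.0400). It was not one between T_Dysf and Acute-7d (1.85, SE 0.50, adjusted p = 0.0965), T_Dysf and Acute-2d (2.28, adjusted p = 0.0523) or Effector and Acute-7d (1.96, adjusted p = 0.0643). With only the genes that reached 50 normalized counts in some library, these 3 differences passed by limma (adjusted p = 0.0224, 0.00834 and 0.0125). The study's methods set this cutoff on counts before normalization. The call between Effector and Acute-2d did not hold without any 1 of the 8 libraries (1.84 to 2.96, adjusted p 0.0501 to 0.145) or with a term for the prefix (1.35, adjusted p = 0.413). T_Dysf minus Acute-7d within the libraries without the prefix was 2.37, and Effector minus Acute-7d within the RESUB libraries was 1.44.

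*Dusp5* encodes a nuclear phosphatase specific for ERK. Its values were 2550.35 and 2423 normalized counts in Effector, 4281 and 7590.2 in Acute-2d, 5950.05 and 5029 in Acute-7d, and 7500 and 8676 in T_Dysf. Effector was the lowest condition, and both T_Dysf libraries were above both of Acute-7d, while Acute-2d overlapped T_Dysf and Acute-7d. By limma *Dusp5* was a DEG between T_Dysf and Effector, 3.24-fold higher in T_Dysf (log2 fold change 1.70, SE 0.29, adjusted p = 0.0237). Effector was below Acute-7d by a log2 difference of -1.14 (adjusted p = 0.0628) and below Acute-2d by -1.20 (adjusted p = 0.0544), which did not pass over all genes and did with the filter above (adjusted p = 0.0120 and 0.00960). T_Dysf minus Acute-7d was 0.56 (95% interval -0.18 to 1.30). Within libraries of 1 prefix, T_Dysf minus Acute-7d was 0.68 and Effector minus Acute-7d -1.26. The call against Effector did not hold with a term for the prefix (1.94, adjusted p = 0.194) or without any library of Effector, Acute-7d or T_Dysf (1.59 to 1.80, adjusted p 0.0531 to 0.101). Without Acute-2d replicate 1 or replicate 2 the difference from Acute-7d passed (adjusted p 0.0318 to 0.0319), and without Acute-2d replicate 1 that from Acute-2d did (-1.61, adjusted p = 0.0339). An antisense gene, AC137853.2, overlaps 547 of the 2473 exon bases of *Dusp5*; whether strand was used in counting is not given in the sources used here, so reads of the 2 genes cannot be told apart.

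Of the phosphatases in the cytoplasm, *Dusp6* is specific for ERK and a standard readout of ERK activity. Its values were 2403 and 1054 normalized counts in Effector, 5993 and 7646 in Acute-2d, 7724 and 7315 in Acute-7d, and 4759 and 5065 in T_Dysf. Effector lay lowest, T_Dysf next and the rested cells highest, with no overlap between these 3 levels. As for *Dusp1*, 9.95% of all genes were lower in every library of Effector and T_Dysf than in every rested library. By limma *Dusp6* was a DEG between Effector and Acute-7d (log2 fold change -2.24, SE 0.40, adjusted p = 0.0300) and between Effector and Acute-2d (-2.09, SE 0.40, adjusted p = 0.0333). T_Dysf minus Effector was 1.62 (95% interval 0.59 to 2.66, adjusted p = 0.0588), a difference that passed with the filter above (adjusted p = 0.00964) and without either Effector library (1.03 and 2.22, adjusted p 0.00885 to 0.0495). T_Dysf minus Acute-7d was -0.61 (95% interval -1.65 to 0.42) and T_Dysf minus Acute-2d -0.46 (-1.50 to 0.57). The 2 calls did not hold without any library of Acute-2d, Acute-7d or T_Dysf (adjusted p 0.0620 to 0.133 and 0.0701 to 0.125), or with a term for the prefix (adjusted p = 0.104 and 0.259). Within the RESUB libraries Effector minus Acute-7d was -2.28, and within the others T_Dysf minus Acute-7d was -0.58.

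*Dusp9*, an X-linked gene (Entrez 75590, chrX:73639389-73643514, plus strand) for a phosphatase of the cytoplasm that prefers ERK, was the one of the 10 genes called between T_Dysf and every other condition. Its values were 63.1 and 63.2 normalized counts in Effector, 49.5 and 69.1 in Acute-2d, 41.3 and 38.4 in Acute-7d, and 150.2 and 119 in T_Dysf. Both T_Dysf libraries were above all 6 others, and both Acute-7d libraries were below all others. By limma *Dusp9* was 3.30-fold higher in T_Dysf than in Acute-7d (log2 fold change 1.72, SE 0.23, adjusted p = 0.0203), 2.27-fold higher than in Acute-2d (1.18, SE 0.23, adjusted p = 0.0412) and 2.10-fold higher than in Effector (1.07, SE 0.23, adjusted p = 0.0444). The call against Acute-7d did not hold without Acute-7d replicate 1, Acute-7d replicate 2 or T_Dysf replicate 1 (1.56 to 1.78, adjusted p 0.0846 to 0.108), and those against Acute-2d and Effector did not hold without any 1 of the 8 libraries (0.94 to 1.42, adjusted p 0.0633 to 0.175, and 0.91 to 1.24, adjusted p 0.0528 to 0.182). In a fit of only the 2 conditions compared, no call of *Dusp9* held (adjusted p = 0.0604 against Acute-7d, 0.126 against Acute-2d and 0.107 against Effector). With a term for the prefix none held either (1.78, 1.18 and 1.17, adjusted p = 0.0954, 0.0843 and 0.287). That term leaves the difference from Acute-2d unchanged, since neither condition has the prefix. Within the 5 libraries without the prefix, all with *Xist*, T_Dysf minus Acute-7d was 1.78 and T_Dysf minus Acute-2d 1.18, and within the RESUB libraries Effector minus Acute-7d was 0.60. Per kb of exon it was the lowest of the 7 phosphatase genes in every library.

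*Dusp10* encodes a phosphatase that acts on JNK and p38 more than on ERK. Its values were 455 and 403 normalized counts in Effector, 537 and 389 in Acute-2d, 539 and 310.0 in Acute-7d, and 529 and 453 in T_Dysf. Replicate 1 was above replicate 2 in every condition, and the libraries of every pair of conditions overlapped. *Dusp10* was a DEG in no comparison, and its log2 differences were between -0.16 and 0.26. The interval of T_Dysf minus Acute-7d ran from -0.55 to 1.07, so these libraries do not bound its change to less than 2-fold. Within libraries of 1 prefix, T_Dysf minus Acute-7d was 0.66 and Effector minus Acute-7d -0.33.

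Of the Sproutys, *Spry1* is best known in T cells as an inhibitor of receptor signaling. Its values were 167 and 98.4 normalized counts in Effector, 148 and 58.2 in Acute-2d, 162 and 95.2 in Acute-7d, and 127 and 113 in T_Dysf. Replicate 1 was above replicate 2 in every condition, and every pair of conditions overlapped. It was a DEG in no comparison, with differences of -0.10 to 0.46 and the widest intervals of the 10 genes (T_Dysf minus Acute-7d -0.05, 95% interval -1.50 to 1.39). Within libraries of 1 prefix, T_Dysf minus Acute-7d was 0.33 and Effector minus Acute-7d -0.34. A gene on the opposite strand, Gm42922, overlaps 710 of its 2906 exon bases, and the reads cannot be told apart for the reason given for *Dusp5*.

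*Spry2* (Entrez 24064, chr14:105891947-105896819, minus strand) encodes the Sprouty that restrains Ras and ERK downstream of many receptors, and it had the widest range of the 10 genes. Its values were 761 and 289.9 normalized counts in Effector, 220.1 and 175 in Acute-2d, 616 and 527 in Acute-7d, and 1726 and 2008 in T_Dysf. Both T_Dysf libraries were above all others, Acute-2d was below all others, and Effector overlapped Acute-7d. By limma it was 9.44-fold higher in T_Dysf than in Acute-2d (log2 fold change 3.24, SE 0.47, adjusted p = 0.0186). A term for the prefix cannot change this difference, since neither condition has the prefix. Under that term the call held (adjusted p = 0.0483). It did not hold without any library of Acute-2d or T_Dysf (3.07 to 3.40, adjusted p 0.0711 to 0.0952). T_Dysf minus Acute-7d was 1.71 (SE 0.47, adjusted p = 0.0993) and T_Dysf minus Effector 1.98 (SE 0.47, adjusted p = 0.0533), which were not DEGs over all genes and were with the filter above (adjusted p = 0.0223 and 0.00866). They also passed without either Effector library (1.71, adjusted p 0.0183 to 0.0184, and 1.29 and 2.68, adjusted p 0.00894 to 0.0469). In a fit of T_Dysf and Acute-7d alone *Spry2* was a DEG (adjusted p = 0.0383). T_Dysf minus Acute-7d within the libraries without the prefix was 1.82, and Effector minus Acute-7d within the RESUB libraries was -0.39. Acute-7d minus Acute-2d was 1.53 (95% interval 0.32 to 2.75, unadjusted p = 0.0230, adjusted p = 0.573), and Effector minus Acute-2d was 1.26 (adjusted p = 0.149), which passed with the filter (adjusted p = 0.0428) and without Effector replicate 2 (1.95, adjusted p = 0.0284).

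*Spred1* (Entrez 114715, chr2:117121071-117182279, plus strand) encodes a membrane protein that brings the Ras inactivator neurofibromin to Ras. Its values were 271 and 339 normalized counts in Effector, 122 and 88.5 in Acute-2d, 99.3 and 103 in Acute-7d, and 132 and 144 in T_Dysf. Effector was above all others, and both T_Dysf libraries were above all 4 of the rested cells by a small margin. Of all genes, 9.16% were higher in every library of Effector and T_Dysf than in every rested library. By limma *Spred1* was higher in Effector than in Acute-7d (log2 fold change 1.58, SE 0.20, adjusted p = 0.0178) and Acute-2d (1.54, SE 0.20, adjusted p = 0.0162), and lower in T_Dysf than in Effector (-1.13, SE 0.20, adjusted p = 0.0268). It was opposite in direction to *Dusp1* and *Dusp6* in the comparisons with the rested cells. T_Dysf minus Acute-7d was 0.44 (95% interval -0.08 to 0.96) and T_Dysf minus Acute-2d 0.40 (-0.12 to 0.92), both intervals staying under 2-fold. None of the 3 calls held with a term for the prefix (1.60, 1.59 and -1.18, adjusted p = 0.0648, 0.162 and 0.239) or without Effector replicate 2. Those with Acute-7d and T_Dysf were also lost without any library of Acute-7d or T_Dysf. The adjusted p without these libraries was 0.0577 against Acute-2d, 0.0509 to 0.0889 against Acute-7d and 0.0599 to 0.127 between T_Dysf and Effector. Within the RESUB libraries Effector minus Acute-7d was 1.60, and within the others T_Dysf minus Acute-7d was 0.42.

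**Figure D3:**
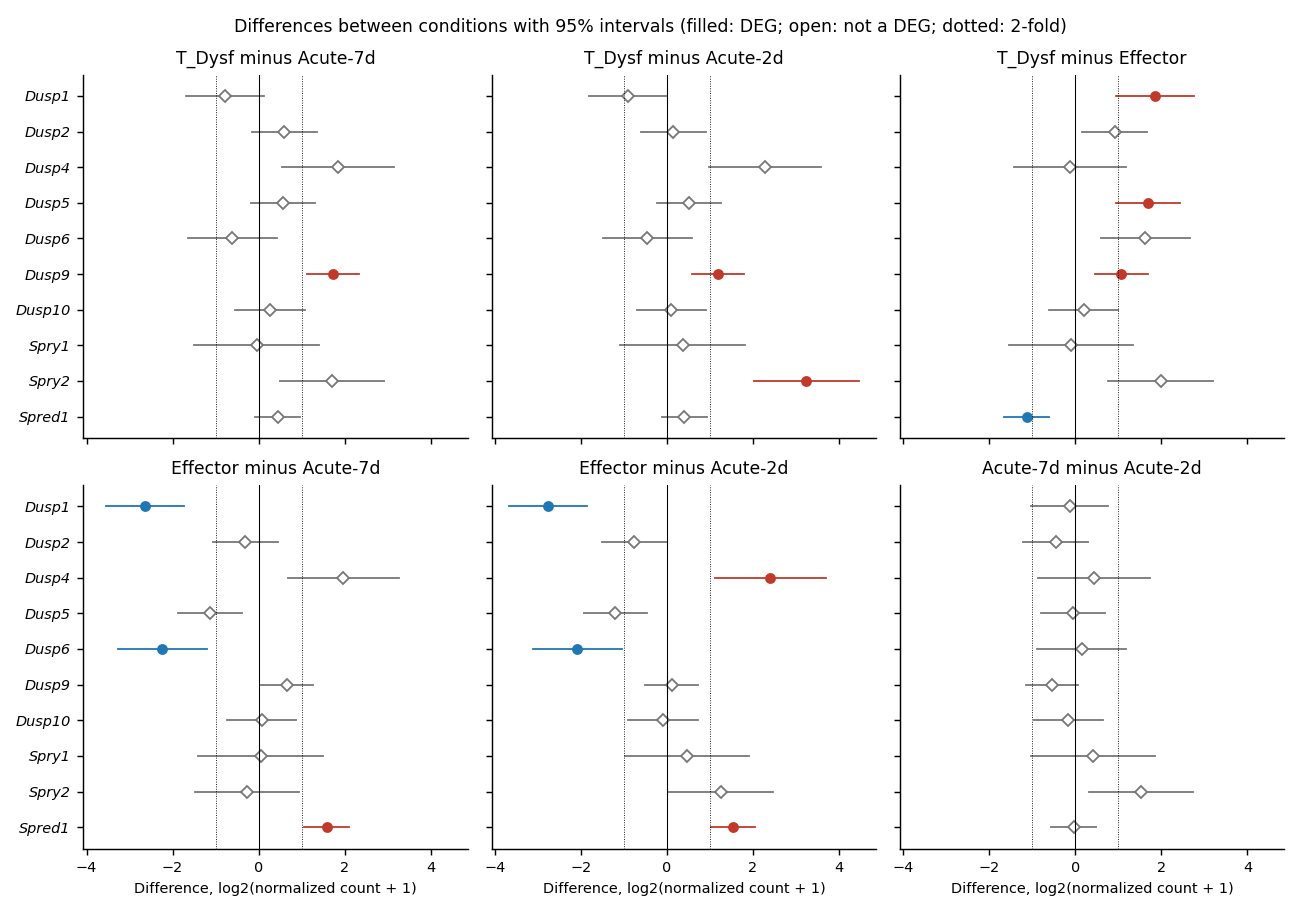
Differences between conditions on the log2(normalized count + 1) scale (x axes) with 95% intervals, for the 10 genes (y axes) and the 6 comparisons (panels). Filled red and blue circles are DEGs, higher and lower in the condition named first, open diamonds are not DEGs, and dotted lines mark 2-fold; *Dusp9* is a DEG in each of the 3 panels with T_Dysf, and no gene is one between Acute-7d and Acute-2d.

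Counted by comparison, 1 of the 10 genes was a DEG between T_Dysf and Acute-7d (*Dusp9*), where 5.57% of all genes were (2.54% higher and 3.03% lower). The median difference of the 10 genes was 0.50 and that of all genes 0. Without overlap of libraries, 6 genes were higher in T_Dysf and 2 (*Dusp1* and *Dusp6*) lower, against 26.0% and 28.8% of all genes. The 6 were *Dusp2*, *Dusp4*, *Dusp5*, *Dusp9*, *Spry2* and *Spred1*, and *Dusp9* alone of these was past the test. Against Acute-2d, *Dusp9* and *Spry2* were DEGs (2 of 10), and both were higher in T_Dysf. Of all genes 7.35% were, 3.14% higher and 4.21% lower.

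Against Effector, 4 of the 10 genes were DEGs in T_Dysf, where 9.22% of all genes were (4.47% higher and 4.75% lower). *Dusp1*, *Dusp5* and *Dusp9* were higher in T_Dysf and *Spred1* was lower, and the median difference of the 10 was 0.99. Between Effector and Acute-7d 3 genes were DEGs (8.06% of all genes, 4.18% higher and 3.88% lower), with *Dusp1* and *Dusp6* lower and *Spred1* higher in Effector. Between Effector and Acute-2d 4 were (8.78% of all genes, 4.31% higher and 4.48% lower), the same 3 in the same directions and *Dusp4*, which was higher in Effector. The medians of the 10 genes in these 2 comparisons were -0.12 and 0.01, with members on both sides of 0. Between the rested conditions none of the 10 was a DEG by limma, where 0.169% of all genes were (0.0782% higher and 0.0905% lower), and 1 (*Spry2*) had an unadjusted p under 0.05.

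The table held 14 other DUSP, SPRY and SPRED genes. Between T_Dysf and Acute-7d none of the 14 was higher and 1 was lower, beside 2.54% and 3.03% of all genes. It was *Dusp7* (a phosphatase of ERK in the cytoplasm, with 970 and 1044 normalized counts in Acute-7d and 287 and 308 in T_Dysf; log2 fold change -1.75, limma adjusted p = 0.0344), and the median difference of the 14 was 0.08. *Dusp7* thus lay in the opposite direction to *Dusp9*. Its call did not hold without any library of Acute-7d or T_Dysf. Between T_Dysf and Effector 2 of 14 were lower (4.75% of all genes were), *Dusp7* and *Dusp22*, and *Dusp14* was higher than in Acute-2d in both T_Dysf and Effector, the last 2 genes being named after their values were seen.

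Among 25 genes of the ERK cascade, 1 was higher and 2 were lower in T_Dysf than in Acute-7d, where 2.54% and 3.03% of all genes were, and the median difference was -0.15. *Rps6ka1*, a kinase activated by ERK, was higher (log2 fold change 1.21, limma adjusted p = 0.0275), and *Rasgrp2*, an exchange factor of Rap and Ras, and *Rasa3*, a GTPase-activating protein, were lower (-1.06, adjusted p = 0.00945, and -1.22, adjusted p = 0.0159). Among 18 genes of the JNK and p38 cascades, 2 were lower and none was higher, beside the same shares of all genes, with a median of -0.18. *Mapk11*, a p38 kinase, fell from 449 and 326 normalized counts in Acute-7d to 116 and 158 in T_Dysf (-1.49, adjusted p = 0.0388). *Mapk12*, another p38 kinase, was at 107 and 59.6 in Acute-7d and at 2.59 and 0.89 in T_Dysf, where it was at or under 3 reads, so no fold is given.

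Of 20 immediate early and early genes that ERK is known to induce, 1 was higher and 2 were lower in T_Dysf than in Acute-7d (2.54% and 3.03% of all genes), and the median difference was 0.25. *Nr4a1*, an immediate early gene of receptor signaling, was higher (83.7 and 128 normalized counts in Acute-7d, 742 and 529 in T_Dysf; log2 fold change 2.58, limma adjusted p = 0.0323), and *Myc* and *Phlda1* were lower (-1.69, adjusted p = 0.0176, and -1.18, adjusted p = 0.00801). Of the same 20 genes, 5 were lower in Effector than in Acute-7d and 1 was higher, where 3.88% and 4.18% of all genes were, with a median of -0.72: *Fos*, *Fosb*, *Fosl2*, *Ier5* and *Myc* were lower and *Nr4a1* was higher, the first 4 being named after their values were seen. Every call named from the 4 lists between T_Dysf and Acute-7d was lost without at least 1 library: *Myc* without either T_Dysf library, *Phlda1* and *Mapk12* without Acute-7d replicate 1, *Rasgrp2* without Acute-7d replicate 1 or T_Dysf replicate 1, *Rasa3* and *Dusp7* without any library of Acute-7d or T_Dysf, *Rps6ka1* without any of these but Acute-7d replicate 2, and *Nr4a1* and *Mapk11* without any library of Acute-2d, Acute-7d or T_Dysf. With a term for the prefix 8 of these 9 calls were lost (adjusted p 0.0527 to 0.161), and that of *Myc* held (-1.37, adjusted p = 0.0163). The prefix-adjusted differences were 2.28 for *Nr4a1* and -1.81 for *Dusp7*. These alternatives were not run for the genes named after their values were seen.

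Genes with the most similar pattern were sought among 12028 genes with a mean of at least 50, by Pearson's r of log2(normalized count + 1) over the 8 libraries. These libraries fall into 4 conditions, so for genes that differ between conditions r mostly describes their order. *Dusp10* and *Spry1* overlapped between every pair of conditions, with replicate 1 above replicate 2 in each condition. Their r therefore also follows differences between replicates. *Dusp6* was nearest to *Pea15a* (r = 0.997), which encodes a protein that binds ERK, then to *Tprgl* and *Dguok* (0.995 and 0.992). *Spred1* was nearest to *Hmgb2*, *Hmgb3* and *Ap1s3* (0.996, 0.991 and 0.990). *Spry2* was nearest to *Zcchc14* and *Klrc1* (0.988 and 0.987), *Klrc1* being an inhibitory receptor of NK and CD8 T cells. *Dusp1* was nearest to *Card6*, *Ccser2* and *Carns1* (0.991 to 0.990), *Dusp5* to *Vps28*, *Vps72* and *Cnppd1* (0.989 to 0.985), *Dusp4* to *Prkrip1*, *Gpn2* and *Polr3c* (0.984 to 0.972) and *Dusp9* to *Caskin2*, *Klhl5* and *Pigx* (0.978 to 0.968). For the members that were never a DEG the nearest genes were *Prrg2* for *Dusp2* (0.957), *Med6* for *Dusp10* (0.955) and *Oga* for *Spry1* (0.934).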

How the data were processed

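RNA-Seq of P14 CD8 T cells gave 8 libraries, 2 in each of 4 conditions that were taken from the sample titles. Upstream of the table, the authors used STAR (genome mm10), the RefSeq transcripts in Partek Flow and the median-ratio scaling of DESeq2. The deposited values are a signal on a continuous scale, called normalized counts here: with the most frequent low value taken as 1 read, 51.2% to 74.9% of those below 1000 reads came out whole to within 0.01 reads, so no count model was fitted. All 8 columns of the table were used. The methods name a filter, before normalization, on features with a maximum under 50, but the table holds lower genes, and all were kept. The same cutoff on normalized counts was an alternative. Floors of 3 reads cover counting error only.

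Log2 of the normalized count plus 1 was tested in limma 3.58.1 (R 4.3.3) by lmFit and trended eBayes, with 4 group means fitted to 24303 genes in 8 libraries. All tests were two-sided, and 95% intervals are from the same model. A DEG needed a difference of 2-fold or more together with p under 0.05 by Benjamini-Hochberg across the table. Levels per kb used the union of GENCODE vM21 exons (GRCm38), and positions and promoters came from RefSeq (GRCm38.p6).

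The 10 genes and the lists were chosen with earlier results of these data known. All 10 are named. From each other list at most 3 genes are named, those with the smallest adjusted p among DEGs between T_Dysf and Acute-7d with a mean of at least 50, and for each of the 10 the 3 genes of the most similar pattern were sought; 1 result under this rule is not reported here. *Dusp22*, *Dusp14*, *Fos*, *Fosb*, *Fosl2* and *Ier5* lie outside the rule and were named after their values were seen. The alternatives were pseudocounts of 0.1 and 10; filters at 50 on the mean or on the maximum; scaling to 1 common 75th percentile; quantiles made equal; only the 2 conditions compared; the replicate number as a block; RESUB as a term; p without adjustment; and 1 library left out at a time. The same alternatives for the listed genes and the differences within libraries of 1 prefix were added after the data were seen. Scripts ran in Python 3.11.15 with numpy (2.4.6) and pandas (2.3.3), and plots were drawn with matplotlib (3.10.9).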

Additional observations from a re-analysis of the deposited data

How the results depend on the processing

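With 2 libraries a condition the calls depended on single libraries and on which genes entered the fit. Of 600 differences of the 10 genes under settings other than leaving out a library, 520 kept their direction and side of the threshold, 31 lost it, 35 passed it and 14 changed sign. Of 480 without 1 library these were 369, 72, 10 and 29. Of 162 for the named genes of other lists, 118 kept both, 44 lost the threshold and none changed sign. The number of DEGs among the 10 between T_Dysf and Acute-7d (1) was 3 with either filter at 50 and with the unadjusted p, and 0 with the replicate block or a term for the RESUB libraries; the fit of the 2 groups also gave 1, but Spry2 (adjusted p = 0.0383) in place of Dusp9 (0.0604). Between T_Dysf and Acute-2d (2) it was 1 with the fit of the 2 groups, the replicate block or the RESUB term. Between T_Dysf and Effector (4) it was 1 with the fit of the 2 groups, 2 with the replicate block and 0 with the RESUB term. Between Effector and Acute-7d (3) it was 5 with either filter at 50 and with the unadjusted p, 0 with the fit of the 2 groups and 1 with the RESUB term. Between Effector and Acute-2d (4) it was 0 among the 10 with the fit of the 2 groups and 1 with the RESUB term. Over all genes these gave 235 and 350 (2135 in the main fit). Between Acute-7d and Acute-2d (0) it was 1 of the 10 with the unadjusted p, and 910 over all genes (41 in the main fit). With a filter, fewer genes enter both the adjustment and the estimate of the spread shared over genes. In the fit of the 2 groups, fewer libraries set the spread. The cause of the changes in the numbers among the 10 was not tested.

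With each library left out these numbers ran from 0 to 2, 0 to 1, 0 to 4, 0 to 3 and 1 to 3 in these comparisons, and 0 between the rested conditions. Same-numbered libraries were not taken as pairs, since their deviations correlated at -0.20 to 0.20 over 6 pairs of conditions and over 0.1 in 2 of them. The replicate block ended the calls of Dusp9 against all 3 other conditions, of Dusp6 in Effector against both rested conditions and of Spred1 between T_Dysf and Effector, and changed no other call. DEGs over all genes, 1353, 1787, 2241, 1958, 2135 and 41 in the 6 comparisons, ran over all alternatives from 422 to 3184, 656 to 3517, 386 to 4060, 155 to 3515, 235 to 3705 and 1 to 910, and every upper end was that with the unadjusted p.

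None of the differences that changed sign was of a DEG. With the RESUB term these were Dusp10 (Effector minus Acute-7d, -0.33), Dusp4 (Acute-7d minus Acute-2d, -0.087; T_Dysf minus Effector, 0.93) and Spry1 (Effector minus Acute-2d, -0.30; Effector minus Acute-7d, -0.34; T_Dysf minus Acute-7d, 0.33; T_Dysf minus Effector, 0.67). With equal 75th percentiles they were Dusp10 (Effector minus Acute-7d, -0.065; T_Dysf minus Acute-2d, -0.018), Dusp9 (Effector minus Acute-2d, -0.037) and Spry1 (Effector minus Acute-7d, -0.087). With quantile normalization they were Dusp10 (Effector minus Acute-7d, -0.035), Spred1 (Acute-7d minus Acute-2d, 0.031) and Spry1 (T_Dysf minus Acute-7d, 0.0070). Without 1 library in turn, these ranges crossed 0. In Acute-7d minus Acute-2d the range was Dusp1 -0.58 to 0.32, Dusp10 -0.56 to 0.24, Dusp4 -0.12 to 0.99, Dusp5 -0.47 to 0.35, Dusp6 -0.025 to 0.33, Spred1 -0.27 to 0.19 and Spry1 -0.25 to 1.08. In Effector minus Acute-2d the range was Dusp10 -0.33 to 0.14, Dusp9 -0.13 to 0.34 and Spry1 -0.21 to 1.13. In Effector minus Acute-7d the range was Dusp10 -0.33 to 0.47, Spry1 -0.34 to 0.43 and Spry2 -0.97 to 0.42. In T_Dysf minus Acute-2d the range was Dusp10 -0.13 to 0.33, Dusp2 -0.19 to 0.48 and Spry1 -0.30 to 1.03. In T_Dysf minus Acute-7d the range was Dusp10 -0.14 to 0.66 and Spry1 -0.43 to 0.33. In T_Dysf minus Effector the range was Dusp4 -0.23 to 0.00079 and Spry1 -0.47 to 0.28.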
